A study of Mus musculus with 24 samples.

Results

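Skin of AA mice given a systemic JAK1 inhibitor (systemic JAK1i) was set against skin of AA mice that received no inhibitor, across all genes of the deposited count table. The comparison was fixed by the sample labels alone and holds 12 of the 24 libraries of the series, 6 of systemic JAK1i skin and 6 of AA skin, and it was fitted together with the 6 libraries of skin taken 8 weeks off treatment (8w off Tx) and the 6 of healthy skin. All mice were female C3H/HeJ, about 30 weeks old at termination, and about 50 mg of dorsal skin was taken from each. Alopecia areata (AA) had been brought on by a skin graft from an affected mouse, in the systemic JAK1i, 8w off Tx and AA mice alike, and no graft is stated for the healthy mice. Systemic JAK1i mice ate about 100 mg/kg of Cmpd A once a day for 4 weeks, and a biopsy was then taken while they lived. They were left untreated for a further 8 weeks and gave the terminal 8w off Tx samples, so that these libraries come from the same mice as the biopsies. Both groups carry replicate letters A to F, and whether the same letter marks the same mouse is not stated. AA and healthy skin was terminal and was taken at week 12. Their treatment is labelled as none, although the AA sample titles hold the letters Vec, and whether a vehicle was given is not known. Since the age is given at termination, the biopsied mice were by the labels younger when sampled than the AA mice. Treatment, week 4 against week 12, age at sampling, and live biopsy against terminal sampling therefore cannot be told apart in what follows. The study's hair scores also set the treated mice apart from the AA mice before dosing. The labels give no litter, cage or batch, and p-values measure the spread between these mice only.

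In AA, T cells gather around the growing hair follicle, a site that is normally hidden from the immune system by a low level of MHC class I, and hair is lost while the follicle itself survives. JAK1 is a kinase bound to the receptors of the interferons, of the cytokines that share the common gamma chain (IL-2, IL-7, IL-15 and others) and of the IL-6 family. A ligand makes it phosphorylate STAT proteins, which enter the nucleus and switch on target genes, among them those of the antiviral state, of antigen presentation and of T cell chemokines. The hair follicle cycles through growth (anagen), regression and rest (telogen), and the genes of the hair shaft and its sheaths are read out mainly in growth.

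The libraries held 5559273 to 11233020.0 counts (median 6868290.0) in systemic JAK1i skin and 3859132 to 8472874 counts (median 4491580.0) in AA skin, so the treated group was the deeper of the 2. Keratins of the epidermis were abundant in all 12, with Krt10 at 2343 ± 272 CPM in systemic JAK1i skin and 2671 ± 865 CPM in AA skin (mean ± SD, n = 6 each) and Krt5 at 1835 ± 263 CPM in systemic JAK1i skin and 2015 ± 425 CPM in AA skin. CPM here are counts scaled to the library size with TMM factors. Levels in CPM are compared between groups for 1 gene and not between genes, since they are not per length. No 2 libraries were copies of each other. Genes differed less between the treated mice than between the AA mice. The median SD of log2 CPM over genes was 0.178 in systemic JAK1i skin and 0.28 in AA skin, and the SD was the larger in AA skin for 78.9% of genes.

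Of 16248 genes tested with edgeR's quasi-likelihood test, 3718 (22.9%) were higher in systemic JAK1i skin and 4037 (24.8%) lower at an adjusted p below 0.05, in all 7755 (47.7%). The counts of each gene list are to be read against these shares of all genes. Most of these changes were small, with 5256 below 2-fold and 1812 between 2-fold and 4-fold. The large ones were mostly falls. Above 4-fold there were 196 rises and 491 falls, and above 16-fold 19 rises and 191 falls. At the thresholds of the study, an adjusted p below 0.001 with a change of more than 4-fold, 171 genes were higher and 444 lower, 615 in all (3.79%). All 6 systemic JAK1i libraries lay above all 6 AA libraries for 2137 genes and below them for 2241, together 26.9% of genes tested. The fold change of the median gene was close to none (log2 fold change -0.00609), which is set by the normalization. On the deposited TPM values without centring the median gene stood 0.65 higher in log2, with 8564 genes higher and 603 lower, and after centring each library on its median 3403 were higher and 3204 lower, so directions are given here relative to the median gene. Among genes named below as lower, Dlgap5, Stat3, Stat6, Cish and Arntl had the other sign on the uncentred TPM values. Among the lists whose counts are given below, so did the medians of the interferon regulatory factor, gamma-chain, constitutive proteasome, Wnt, dendritic cell and hypoxia lists. On uncentred log2(TPM + 0.1) the MHC class I and class II medians stayed negative (-0.048 and -0.085). In that setting 0 members of either list were called lower and 1 class II gene was called higher. On centred TPM 27 of 166 called genes named below had a log2 fold change over 1.5 times smaller than on counts, among them Isg15 (-3.42), Oas3 (-2.96) and Mx1 (-1.73), with the sign kept. Against healthy skin, 170 genes (1.05%) were called in systemic JAK1i skin, a count that shares its 6 treated libraries with the comparison above and is given beside it only as a level.

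**Figure D1:**
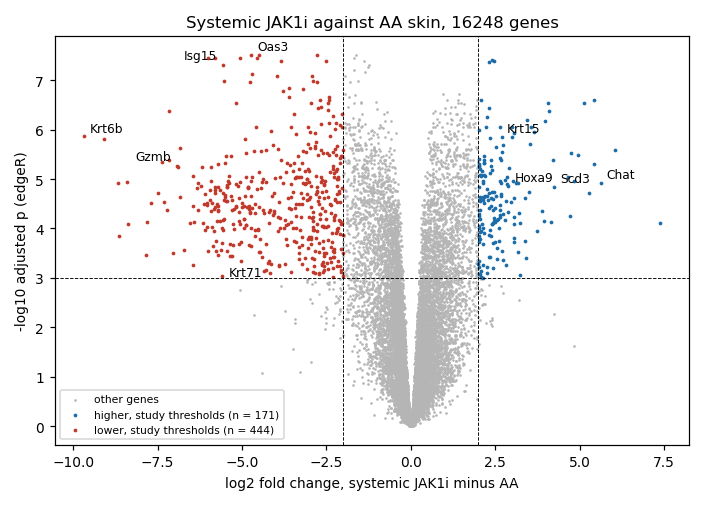
Each point is 1 of 16248 genes, with the log2 fold change of systemic JAK1i minus AA skin on the x axis and the adjusted p of edgeR's quasi-likelihood test, as -log10, on the y axis. Genes past the study thresholds are coloured, 171 to the right and 444 to the left, and the left arm reaches further.

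The largest falls that kept all libraries apart were in a keratin of the companion layer, cornified envelope and hair shaft genes and 1 granzyme. Krt6b (ENSMUSG00000023041, GRCm38 chr15:101676023-101680287), a keratin that skin makes in the companion layer of the follicle and in injured epidermis, had 0.27, 0.582 and 0.993 CPM in systemic JAK1i skin, against 97.8, 479 and 943 CPM in AA skin. It was all but missing from treated skin and spread widely over the AA mice. Its log2 fold change was -9.69 ± 1.46 (SE), with an edgeR adjusted p = 1.4e-06. After it came BC100530 (-9.08 ± 1.62) and Stfa1 (-7.36 ± 1.64), both of the stefin family of cysteine protease inhibitors, Sprr2a3 (-8.68 ± 2.20), a small proline-rich protein of the cornified envelope, the keratin-associated proteins Krtap9-5, Krtap19-1 and Krtap31-1, Gm11565, 2610528A11Rik and Gzmb, all lower. Stefin, Sprr2 and Krtap genes each sit in families of near-identical copies, so how reads were split among the copies is uncertain.

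The largest rises were in genes of several unrelated kinds. Chat (ENSMUSG00000021919, GRCm38 chr14:32408203-32465989), which makes acetylcholine, had 5.54, 7.94 and 16.1 CPM in systemic JAK1i skin, against 0, 0.152 and 0.489 CPM in AA skin. Every treated library lay above every AA library, 5.62 ± 1.29 apart in log2 (edgeR adjusted p = 1.2e-05), and healthy skin had 3.69, 16.8 and 36.7 CPM (lowest, median and highest). Slc26a7, an anion exchanger, had 29.9, 52.5 and 74.7 CPM in systemic JAK1i skin, against 0, 0.517 and 3.4 CPM in AA skin. The next in size were Wfdc3 (5.13 ± 0.74), Akr1c19 (4.83 ± 0.93), Serpinb6e (4.74 ± 0.66), Cyp2g1 (4.71 ± 0.77), the stearoyl-CoA desaturase Scd3 (4.24 ± 0.59), the adenylate cyclase Adcy1 (4.1 ± 0.43), the cytochrome P450 Cyp2e1 (4.08 ± 0.40) and Il22ra2, a soluble receptor that binds IL-22 (3.97 ± 0.50). All 10 kept the treated libraries above the AA libraries, as the choice of the largest changes required.

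Ranked by p rather than by size, interferon response genes led. Of the 20 genes with the smallest adjusted p, 12 were Oas1a, Oas1b, Oas2, Oas3, Adar, Apol9a, Apol9b, Irf9, Ifi44, Mx1, Stat2 and Isg15, all lower. The other 8 were Trim25, which ubiquitinates the RNA sensor of the antiviral response (-1.24 ± 0.11), the mitosis genes Dlgap5 (-1.4 ± 0.12) and Ccnf (-1.26 ± 0.11), Fam83c (-1.68 ± 0.15) and Slc16a6 (-1.35 ± 0.12), lower, and Tmem229a (2.42 ± 0.20), the Schwann cell cadherin Cdh19 (2.48 ± 0.21) and the transporter Abca5 (2.33 ± 0.19), higher.

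The genes of the antiviral state, which interferons induce and which read foreign RNA or block viral growth, fell almost as a block. Of 30 antiviral effectors 29 were lower and 0 higher, against 24.8% and 22.9% of all genes. For 27 of them the 2 groups did not overlap, against 26.9% of all genes. Their median log2 fold change was -2.83, beside -0.00609 over all genes. To show what the promoters of such genes hold, the 250 bases before the start of 4 of the 20 genes with the smallest p are given below. Only Oas3, Irf9, Ifi44, Oas1a, Stat2 and Isg15 of the 20 were considered, as members of the signalling and response lists with a promoter window. The 4 were chosen because they hold a match and all their matches lie before the start. Irf9 held none, and in Ifi44 not all lay before the start. Sequences run 5′ to 3′ on the strand of the gene (RefSeq, build GRCm38.p6). Capitals mark matches to the interferon-stimulated response element, searched as GAAANNGAA on both strands (its reverse reads TTCNNTTTC), and in Oas1a also 1 match to the STAT-binding GAS element, searched as TTCNNNGAA.
Oas3, chr5:120777660-120777909: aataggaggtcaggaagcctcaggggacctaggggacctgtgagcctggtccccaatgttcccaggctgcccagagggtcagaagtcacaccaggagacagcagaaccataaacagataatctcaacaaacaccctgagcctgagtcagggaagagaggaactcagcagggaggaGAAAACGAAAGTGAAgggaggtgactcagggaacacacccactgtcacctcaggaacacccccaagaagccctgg
Oas1a, chr5:120907526-120907775: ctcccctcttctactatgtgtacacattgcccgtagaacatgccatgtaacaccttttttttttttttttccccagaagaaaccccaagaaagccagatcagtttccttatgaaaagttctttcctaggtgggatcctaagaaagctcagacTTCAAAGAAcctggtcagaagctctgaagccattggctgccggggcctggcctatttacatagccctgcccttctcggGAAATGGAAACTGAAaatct
Isg15, chr4:156200819-156201068: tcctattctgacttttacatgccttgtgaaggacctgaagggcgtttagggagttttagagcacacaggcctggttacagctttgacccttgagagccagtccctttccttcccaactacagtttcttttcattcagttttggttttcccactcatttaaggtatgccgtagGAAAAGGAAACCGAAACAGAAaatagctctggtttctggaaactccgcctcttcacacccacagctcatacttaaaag
Stat2, chr10:128270248-128270497: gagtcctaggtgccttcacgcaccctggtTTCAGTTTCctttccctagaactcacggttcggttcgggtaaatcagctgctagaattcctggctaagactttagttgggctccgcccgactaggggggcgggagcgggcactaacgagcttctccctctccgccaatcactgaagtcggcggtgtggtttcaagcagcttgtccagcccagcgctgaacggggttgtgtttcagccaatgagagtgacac
In Oas3 and Oas1a 2 overlapping matches make up the capitals, and in Isg15 3 of them, while Stat2 has 1 on the reverse strand.

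The same letters were counted in the windows of 250 bases before to 50 after the start. GAAANNGAA occurred in 8.56% and TTCNNNGAA in 8.3% of all 32851 promoters. Of the antiviral effectors 22 of 30 matched to 25 promoters, and GAAANNGAA was in 14 of these (56%) and TTCNNNGAA in 6 (24%). Of the interferon-inducible GTPases described below 12 of 21 matched to 13 promoters, 11 (84.6%) with GAAANNGAA and 7 (53.8%) with TTCNNNGAA. The 10 promoters found for MHC class I genes held GAAANNGAA in 3 (30%), the 8 for T cell chemokines in 2 (25%), the 12 for peptide loading genes in 2 (16.7%) and the 11 for interferon regulatory factors in 1 (9.09%), the last near the share of all promoters. TTCNNNGAA was in 1 (10%), 0, 1 (8.33%) and 3 (27.3%) of these promoters, in the same order. The 9 promoters found for STAT genes held GAAANNGAA in 2 (22.2%) and TTCNNNGAA in 0. A match is a run of letters only and says nothing of binding.

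Isg15 (ENSMUSG00000035692, GRCm38 chr4:156199424-156200818), a ubiquitin-like protein that is conjugated to others in the antiviral response, had 0.184, 0.913 and 1.5 CPM in systemic JAK1i skin, against 15.9, 49.4 and 69.7 CPM in AA skin. The highest treated library was far below the lowest AA library, and the log2 fold change was -5.55 ± 0.54 (edgeR adjusted p = 5.0e-08). Oas3 (ENSMUSG00000032661, GRCm38 chr5:120753098-120777661), one of the synthases whose product switches on RNase L, had 1.99, 2.94 and 4.34 CPM in systemic JAK1i skin, against 26.2, 90.9 and 109 CPM in AA skin. Its log2 fold change, -4.74 ± 0.36, came with an edgeR adjusted p = 3.1e-08, the smallest of all genes together with Oas2, Oas1b and Adar. Oas2 had 2.94, 3.98 and 6.95 CPM in systemic JAK1i skin, against 51.2, 103 and 125 CPM in AA skin, and Oas1a had 1.14, 3.05 and 3.59 CPM in systemic JAK1i skin, against 17.9, 39.2 and 53.9 CPM in AA skin. For both, treated and AA libraries lay wholly apart. Mx1, a GTPase that traps viral nucleocapsids, had 1.14, 1.95 and 3.14 CPM in systemic JAK1i skin, against 22.5, 41 and 79.2 CPM in AA skin, and Ifi44 had 0.713, 1.45 and 2.84 CPM in systemic JAK1i skin, against 34.3, 82.4 and 126 CPM in AA skin. Healthy skin held 1.71, 3.95 and 4.92 CPM of Isg15, 3.72, 4.02 and 5.97 CPM of Oas3 and 2.81, 5.51 and 6.2 CPM of Ifi44. Against healthy skin the log2 fold change of systemic JAK1i skin was -1.91 ± 0.58 for Isg15 and -1.72 ± 0.56 for Ifi44, with edgeR adjusted p = 0.086 and 0.11. The 1 antiviral effector that did not pass was Isg20, at 2.45 ± 0.635 CPM in systemic JAK1i skin and 3.61 ± 1.27 CPM in AA skin. Adar, which edits double-stranded RNA, changed less and with little spread, at 50.8 ± 4.8 CPM in systemic JAK1i skin and 157 ± 27.7 CPM in AA skin (-1.63 ± 0.13).

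Apol9a and Apol9b, apolipoprotein L genes of the mouse, were at 1.02 ± 0.59 CPM in systemic JAK1i skin and 33.3 ± 12.8 CPM in AA skin (-5.06 ± 0.45) and at 0.382 ± 0.317 CPM in systemic JAK1i skin and 25.2 ± 10.5 CPM in AA skin (-6.01 ± 0.62). They are near-identical neighbours, and reads may have been split between them.

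Among the transcription factors of the pathway, Stat2 (ENSMUSG00000040033, GRCm38 chr10:128270559-128292849), which joins Irf9 in the complex that binds the response element, had 30.1, 33.9 and 43.3 CPM in systemic JAK1i skin, against 107, 213 and 245 CPM in AA skin. No library of one group reached the other, and the log2 fold change was -2.52 ± 0.21 (edgeR adjusted p = 4.1e-08). Irf9 had 33.4, 37.3 and 52.1 CPM in systemic JAK1i skin, against 95.4, 124 and 151 CPM in AA skin. Irf7, which interferon induces and which in turn raises interferon alpha genes, had 4.42, 6.42 and 7.37 CPM in systemic JAK1i skin, against 39.2, 76 and 111 CPM in AA skin, the widest gap among the interferon regulatory factors (-3.61 ± 0.33). Of 9 such factors 6 were lower and 0 higher, against 24.8% and 22.9% of all genes. Irf1, which interferon gamma induces, was at 53.3 ± 25.6 CPM in systemic JAK1i skin and 173 ± 47.8 CPM in AA skin (-1.7 ± 0.29). Other STAT genes went both ways. Stat3 was at 164 ± 10.7 CPM in systemic JAK1i skin and 289.8 ± 42.5 CPM in AA skin (-0.82 ± 0.09), Stat4, the STAT of IL-12, at 0.857 ± 0.565 CPM in systemic JAK1i skin and 3.02 ± 2.18 CPM in AA skin (-1.8 ± 0.51), Stat6 at 113 ± 3.8 CPM in systemic JAK1i skin and 129 ± 10.7 CPM in AA skin (lost without AA library E, edgeR adjusted p = 0.0555) and Stat5b at 89.8 ± 4.92 CPM in systemic JAK1i skin and 65.2 ± 8.93 CPM in AA skin (0.46 ± 0.10). Stat5a had 41.4 ± 3.54 CPM in systemic JAK1i skin and 39.7 ± 8.11 CPM in AA skin and did not pass. 

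The kinases themselves differed little. Jak1, the target of Cmpd A, had 262, 278 and 301 CPM in systemic JAK1i skin, against 226, 262 and 303 CPM in AA skin. These ranges overlapped almost wholly, and the difference of 0.09 ± 0.08 in log2 did not pass (edgeR adjusted p = 0.33). Jak2 (-0.22 ± 0.14) and Tyk2 (-0.18 ± 0.08) did not pass either, and Tyk2 did without treated library C (edgeR adjusted p = 0.027) or AA library F (edgeR adjusted p = 0.0236). Jak3, which pairs with the common gamma chain and is made mainly in lymphocytes, was lower, at 15.1 ± 1.21 CPM in systemic JAK1i skin and 25.8 ± 9.41 CPM in AA skin (-0.77 ± 0.20). Since these are bulk samples, fewer cells of a type and less RNA per cell cannot be told apart for this or any other gene. Genes that inhibit JAK-STAT signalling, whether or not STAT proteins induce them, moved both ways. Of 15 in the list 6 were lower and 3 higher, against 24.8% and 22.9% of all genes. Usp18, which strips Isg15 from proteins and shuts the interferon receptor off, had 9.76, 11.6 and 15.3 CPM in systemic JAK1i skin, against 26.7, 52.1 and 67.6 CPM in AA skin (-2.05 ± 0.26). Socs1 was at 3.95 ± 1.63 CPM in systemic JAK1i skin and 12.7 ± 5.41 CPM in AA skin (-1.67 ± 0.37), Socs3 at 16.9 ± 5.68 CPM in systemic JAK1i skin and 39.1 ± 11.1 CPM in AA skin (-1.19 ± 0.20) and Cish at 39.7 ± 13.1 CPM in systemic JAK1i skin and 64.3 ± 17 CPM in AA skin (-0.69 ± 0.21), while Socs7 (0.32 ± 0.09) and Socs6 (0.33 ± 0.10) were higher. On centred TPM the calls of Cish (limma adjusted p = 0.0867) and Socs6 (limma adjusted p = 0.563) were lost, and that of Cish also with the replicate block (edgeR adjusted p = 0.0598).

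Receptors and ligands upstream of JAK1 split by kind. Il2rb, the beta chain shared by the IL-2 and IL-15 receptors, had 2, 3.93 and 4.5 CPM in systemic JAK1i skin, against 14.3, 22.6 and 32.6 CPM in AA skin. It was lower in every treated library (-2.67 ± 0.27, edgeR adjusted p = 2.5e-07), and also lower than in healthy skin, at 6.5, 10.1 and 13.8 CPM there (-1.54 ± 0.27, edgeR adjusted p = 0.0091). The high-affinity chain Il2ra (-2.64 ± 0.41), Il21r (-2.5 ± 0.51), Il4ra (-1.58 ± 0.26) and the common gamma chain Il2rg (-1.48 ± 0.28) were lower as well, and the ligands Il15 (0.36 ± 0.12) and Il7 (0.76 ± 0.23), which keep T cells alive, were higher. The call of Il15 was lost on centred TPM (limma adjusted p = 0.176) and without treated library B (edgeR adjusted p = 0.0548) or AA library E (edgeR adjusted p = 0.0555). In all, 6 of 11 genes of this family were lower and 2 higher, against 24.8% and 22.9% of all genes. Ifng, the interferon of T and NK cells, was scarce, with 20 counts over the 6 treated libraries and 86 over the 6 AA libraries (-2.53 ± 0.75, edgeR adjusted p = 0.0049). With the muscle level of each library as a covariate it did not pass (-1.26, edgeR adjusted p = 0.194). Its receptor chain Ifngr1 was higher in treated skin, at 126 ± 17 CPM in systemic JAK1i skin and 80.7 ± 3.96 CPM in AA skin (0.64 ± 0.10), and Ifnar1 and Ifnar2 did not pass. In the IL-6 family the shared chain Il6st (0.5 ± 0.08) and Lifr (0.75 ± 0.14) were higher, Clcf1 (-1.55 ± 0.17) was lower, and Il31ra, the receptor of the itch cytokine IL-31, had 21.3, 42 and 56 CPM in systemic JAK1i skin, against 0.793, 3.57 and 4.3 CPM in AA skin. That gap was 3.65 ± 0.44 in log2, and healthy skin was at 29.2, 61.4 and 92.1 CPM.

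**Figure D2:**
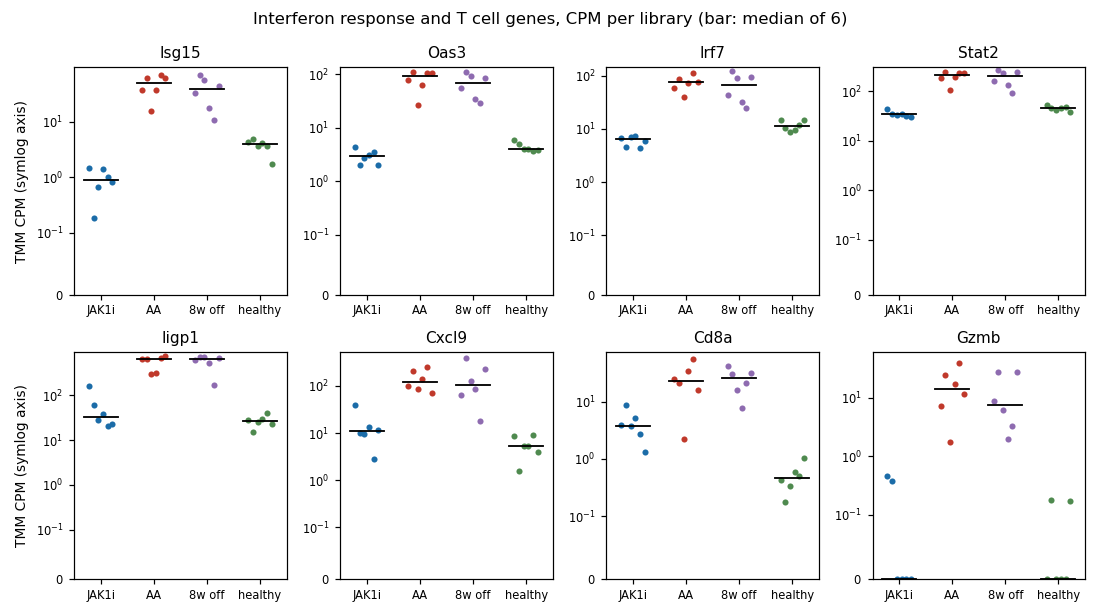
CPM of 8 genes in each library (symmetric log axis, linear below 0.1 CPM), with systemic JAK1i, AA, 8w off Tx and healthy skin from left to right, 6 points each, and a bar at the median. Treated and AA points lie apart for Isg15, Oas3, Irf7, Stat2, Iigp1, Cxcl9 and Gzmb, and the treated library A lies above the other treated libraries for Iigp1 and Cxcl9 but not for Isg15.

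The interferon-inducible GTPases, which interferon gamma switches on strongly and which attack vacuoles that hold microbes, were lower in 19 of 21 cases and higher in 0 (24.8% and 22.9% of all genes), at a median of -2.8 in log2. Iigp1 had 20.7, 32.8 and 164 CPM in systemic JAK1i skin, against 299, 634 and 743 CPM in AA skin, with no overlap. Treated library A held the highest treated value, at 164 CPM, with the others at 20.7 to 60.9 CPM. Irgm1, which steers the other GTPases, had 18.8, 24.4 and 58.7 CPM in systemic JAK1i skin, against 125, 252 and 306 CPM in AA skin (-2.94 ± 0.28, edgeR adjusted p = 2.9e-07). The summed level of the GTPase list was 1021 CPM in treated library A and 382 CPM at the median of treated libraries, against 1952 to 4785 CPM in AA skin. Not all of the response was at the healthy level. Gm4841, of the IRG family, had 0.993, 7.98 and 18.6 CPM in systemic JAK1i skin, against 141, 254 and 586 CPM in AA skin and 0.396, 0.503 and 2.23 CPM in healthy skin. It was lower than in AA skin (-5.16 ± 0.47) and higher than in healthy skin (3.08 ± 0.80, edgeR adjusted p = 0.035). Gm12185 stood likewise between the 2, at 15.7 ± 4.94 CPM in systemic JAK1i skin and 112 ± 52.5 CPM in AA skin and 1.93 ± 1.4 CPM in healthy skin (treated minus healthy 2.98 ± 0.46, edgeR adjusted p = 0.0021), and so did F830016B08Rik, at 73.5 ± 37.3 CPM in systemic JAK1i skin and 512 ± 222 CPM in AA skin and 14.8 ± 9.67 CPM in healthy skin (2.3 ± 0.40, edgeR adjusted p = 0.0091). Most of these GTPases lie in clusters of similar copies. Leaving treated library A and AA library C out together gave 3577 higher and 3902 lower genes.

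Antigen presentation changed in the same direction by smaller steps. Of 13 MHC class I genes 11 were lower, against 24.8% of all genes, and the median of the list in log2 was -0.74. The non-classical H2-T24 had 10.7, 14.2 and 19.6 CPM in systemic JAK1i skin, against 45.3, 81.5 and 100.2 CPM in AA skin, lower in every treated library (-2.45 ± 0.24), and the classical H2-K1 had 480.1, 534 and 741 CPM in systemic JAK1i skin, against 716, 968 and 1155 CPM in AA skin, with overlapping groups (-0.77 ± 0.13, edgeR adjusted p = 6.5e-05). Of 14 genes that cut peptides and load them 13 were lower, against 24.8% of all genes, with a median of -0.97 in log2. Of 14 constitutive proteasome genes 11 were lower too, against 24.8% of all genes, by smaller steps (median -0.26), and 6 without AA library E. Psmb10, a catalytic subunit of the immunoproteasome, was at 15.9 ± 5.34 CPM in systemic JAK1i skin and 58.2 ± 15.3 CPM in AA skin (-1.87 ± 0.24), Tapbp, which holds empty class I at the peptide pump, at 134 ± 24 CPM in systemic JAK1i skin and 399 ± 97.2 CPM in AA skin (-1.57 ± 0.19), and Nlrc5, the class I transactivator, at 275 ± 24.3 CPM in systemic JAK1i skin and 575 ± 107 CPM in AA skin (-1.06 ± 0.15). 10 of 11 class II genes were lower, against 24.8% of all genes, among them Ciita, the class II transactivator (-1.29 ± 0.24), and Cd74, the invariant chain (-1.06 ± 0.26). The class II count was 6 of 11 without AA library E and likewise with the muscle level of each library as a covariate. Treated and healthy skin were close for the loading genes, with Nlrc5 at 275 ± 24.3 CPM in systemic JAK1i skin and 275 ± 54.5 CPM in healthy skin and Tapbp at 134 ± 24 CPM in systemic JAK1i skin and 156 ± 17.9 CPM in healthy skin.

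Transcripts of CD8 T cells and their granules were lower, and Cd4 did not pass. Cd8a had 1.32, 3.86 and 8.83 CPM in systemic JAK1i skin, against 2.2, 23.1 and 55.4 CPM in AA skin. The lowest AA value was that of library C and fell among the treated libraries, so the groups overlapped, and the log2 fold change was -2.59 ± 0.48 (edgeR adjusted p = 1.8e-04). On centred log2(TPM + 0.1) the log2 fold change of Cd8a was -1.30. Healthy skin had 0.176, 0.461 and 1.03 CPM, and treated skin stood above it (3.02 ± 0.86, edgeR adjusted p = 0.046). Cd8b1 had 0.331, 0.944 and 2.76 CPM in systemic JAK1i skin, against 1.22, 8.15 and 15.6 CPM in AA skin, and none of it was counted in any healthy library. Cd4 had 2, 2.78 and 11.1 CPM in systemic JAK1i skin, against 2.38, 3.29 and 7.1 CPM in AA skin, with the groups overlapping (0.06 ± 0.39, edgeR adjusted p = 0.91), and Foxp3, of regulatory T cells, was at 3.44 ± 1.12 CPM in systemic JAK1i skin and 3.43 ± 0.887 CPM in AA skin. Of 17 T cell markers 11 were lower and 0 higher (24.8% and 22.9% of all genes), for example Zap70 (-1.65 ± 0.28), a kinase of the T cell receptor. Of 12 cytotoxic genes 10 were lower, against 24.8% of all genes. Gzmb, the granzyme that sets off apoptosis in the target cell, was at 5 counts over the 6 treated libraries and 498 counts over the 6 AA libraries, or 0, 0 and 0.449 CPM in systemic JAK1i skin, against 1.71, 14.3 and 38.9 CPM in AA skin (-6.93 ± 1.55, edgeR adjusted p = 5.5e-06). Gzma had 6 counts over the treated libraries and 251 over the AA libraries (-5.8 ± 1.29). Gzmc was lower than in AA skin (-5.46 ± 0.93) and lower than in healthy skin, at 0.234 ± 0.163 CPM in systemic JAK1i skin and 11.9 ± 4.84 CPM in AA skin and 5.73 ± 3.51 CPM in healthy skin (treated minus healthy -4.41 ± 0.94, edgeR adjusted p = 0.0087). Perforin (Prf1) was at 3.24 ± 0.963 CPM in systemic JAK1i skin and 8.63 ± 3.47 CPM in AA skin (-1.43 ± 0.30) and the NKG2D receptor Klrk1 at 4.98 ± 1.06 CPM in systemic JAK1i skin and 16.9 ± 6.97 CPM in AA skin (-1.78 ± 0.26). Tnfrsf9, a co-stimulator of activated T cells, was at 0.393 ± 0.362 CPM in systemic JAK1i skin and 6.43 ± 3.98 CPM in AA skin (-3.91 ± 0.71), and the checkpoint ligand Cd274 (PD-L1) at 22 ± 4.85 CPM in systemic JAK1i skin and 65.5 ± 24.9 CPM in AA skin (-1.58 ± 0.31). Icos (-1.38 ± 0.27) was lower and Ikzf2 (0.83 ± 0.21) was higher.

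Most T cell chemokines and a part of the macrophage markers were lower. Of 9 CXCR3 ligands and T cell chemokines 6 were lower and 2 higher, against 24.8% and 22.9% of all genes. The largest rise among the 9 was 2.4 in log2. The ligands of CXCR3, which draw T cells to tissue under interferon gamma, were lower: Cxcl9 had 2.85, 10.8 and 39.8 CPM in systemic JAK1i skin, against 70.9, 121 and 247 CPM in AA skin, Cxcl10 was at 5.23 ± 2.34 CPM in systemic JAK1i skin and 36.2 ± 14.8 CPM in AA skin (-2.8 ± 0.42) and Cxcl11 at 3.6 ± 1.03 CPM in systemic JAK1i skin and 26.8 ± 13.1 CPM in AA skin (-2.89 ± 0.49). Treated library A had 39.8 CPM of Cxcl9 and the others 2.85 to 13.5 CPM. Ccl8, a chemokine of monocytes, had 2.57, 6.03 and 54.5 CPM in systemic JAK1i skin, against 37.9, 175 and 321 CPM in AA skin, and its groups overlapped through library A at 54.5 CPM (-3.72 ± 0.60, edgeR adjusted p = 6.7e-05). Ccl7 (-2.58 ± 0.53) and Ccl22 (-1.64 ± 0.25) were lower too. Of 14 macrophage and monocyte markers 8 were lower, against 24.8% of all genes, such as Aif1 (-1.85 ± 0.34), while Lyz2 and Mrc1, which resident macrophages hold in plenty, were at 152 ± 96.2 CPM in systemic JAK1i skin and 151 ± 54.9 CPM in AA skin and at 107 ± 54.9 CPM in systemic JAK1i skin and 111 ± 52 CPM in AA skin and did not pass. Itgax (-1.61 ± 0.35) and Batf2 (-2.69 ± 0.45) were lower among 13 dendritic and Langerhans cell markers, of which 4 were lower and 1 higher, so that 38.5% were called, against 47.7% of all genes. Mast cell markers went the other way, with 6 of 8 higher and 0 lower, against 22.9% and 24.8% of all genes. Mrgprb2, the mast cell receptor of basic secretagogues, had 12.9, 17.1 and 20.2 CPM in systemic JAK1i skin, against 1.34, 4.17 and 5.51 CPM in AA skin (2.18 ± 0.29), and the protease Cpa3 was at 33 ± 12.8 CPM in systemic JAK1i skin and 8.62 ± 6.18 CPM in AA skin (1.94 ± 0.36). Healthy skin was at 17.4 ± 1.95 CPM of Mrgprb2 and 45.3 ± 22.6 CPM of Cpa3. The immunoglobulin light chain Igkc varied greatly among treated mice, with 11.1, 28.7 and 96.3 CPM in systemic JAK1i skin, against 0.793, 11.7 and 33.5 CPM in AA skin, and did not pass against AA skin (edgeR adjusted p = 0.057). Without AA library C it did (edgeR adjusted p = 0.0146), as it did without treated library E (edgeR adjusted p = 0.0397) or F (edgeR adjusted p = 0.0416). Gsdmc, a pore-forming gasdermin, was at 1.88 ± 1.24 CPM in systemic JAK1i skin and 119 ± 71.9 CPM in AA skin (-5.92 ± 0.88), and the death ligand Tnfsf10 (TRAIL) at 30.3 ± 2.97 CPM in systemic JAK1i skin and 87 ± 29.5 CPM in AA skin (-1.52 ± 0.21).

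**Figure D3:**
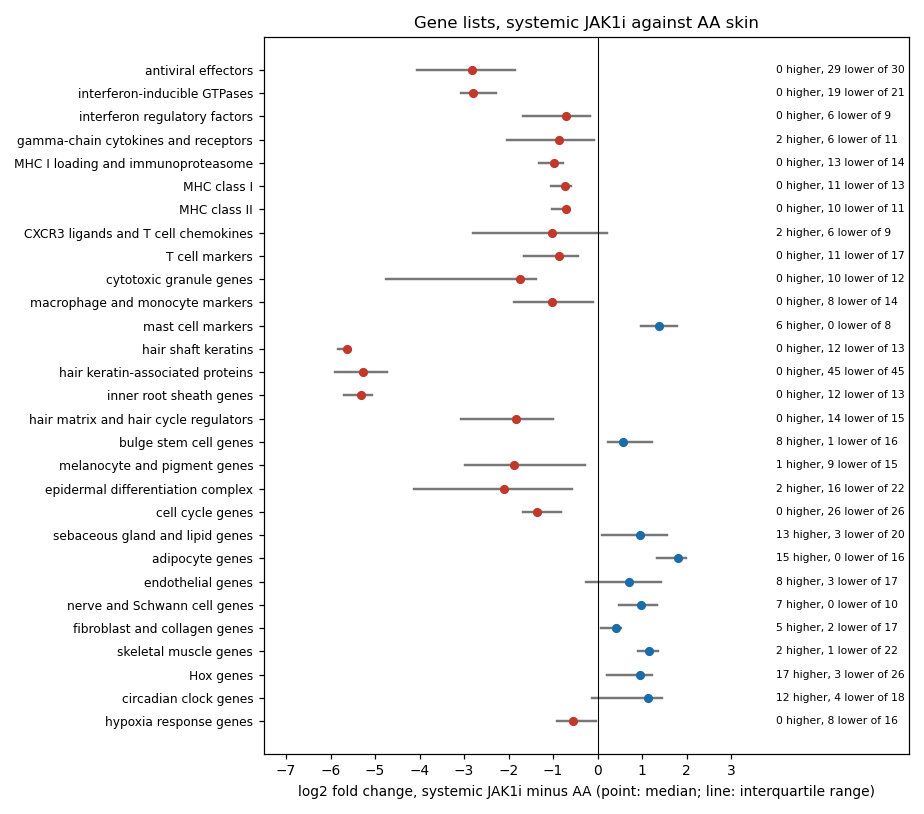
Median log2 fold change (point) and interquartile range (line) of the genes of 29 lists, systemic JAK1i minus AA skin, with the number of genes higher and lower of those tested at the right. Hair shaft, sheath and Krtap genes lie farthest to the left, followed by the antiviral effectors and the interferon-inducible GTPases, and adipocyte genes lie farthest to the right.

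Among the gene lists the largest medians lay in the genes of growing hair, which were low in treated skin and in healthy skin and high in AA skin. In the study's histology the number of follicles in growth rose with disease and was not changed by 4 weeks of treatment. Those sections came from other treated mice than the biopsies, and hair had regrown in both sets. How the follicle counts relate to these transcript levels was not tested. Hair structural genes took 0.0206% to 0.0956% of counts in systemic JAK1i skin and 0.879% to 2.91% in AA skin. Of 13 hair shaft keratins 12 were lower and 0 higher (24.8% and 22.9% of all genes), and their median in log2 was -5.63. Krt35 had 0.57, 3.17 and 4.32 CPM in systemic JAK1i skin, against 88.8, 174 and 329 CPM in AA skin (-6.2 ± 0.89), and Krt32 had 3.68, 4.02 and 4.97 CPM in systemic JAK1i skin, against 37.4, 64.8 and 128 CPM in AA skin (-4.05 ± 0.60). Each treated library lay below each AA library for both. All 45 Krtap genes tested, which cross-link the keratin of the shaft, were lower, against 24.8% of all genes (median -5.26). Krtap9-5 had 2 counts over the 6 treated libraries and 652 over the 6 AA libraries, a level 460.4-fold lower (95% counting interval 127 to 3810.0). Krtap16-1 (-6.44 ± 1.16) and Krtap8-1 (-5.34 ± 0.94) were also lower, and counts of this family are uncertain because of its similar copies. In the inner root sheath, the sleeve that guides the shaft, 12 of 13 genes were lower, against 24.8% of all genes. Krt71 had 1.43, 71.1 and 103 CPM in systemic JAK1i skin, against 1558, 2746 and 4627 CPM in AA skin, with an edgeR adjusted p = 9.3e-04. Treated library E was the lowest, at 1.43 CPM, and the other treated libraries ranged over 21.4 to 103 CPM. Tchh, trichohyalin, which hardens the sheath, had 15.4, 119 and 237 CPM in systemic JAK1i skin, against 2224, 4677 and 7459 CPM in AA skin (-5.35 ± 0.91). Healthy skin had 0, 20.7 and 162 CPM of Krt71 and 9.84, 43 and 323 CPM of Tchh.

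The matrix, where shaft and sheath cells arise, followed. Of 15 matrix and hair cycle regulators 14 were lower and 0 higher, against 24.8% and 22.9% of all genes. Among those lower were the homeobox factors Msx2, at 2.4 ± 0.877 CPM in systemic JAK1i skin and 24.3 ± 9.53 CPM in AA skin (-3.33 ± 0.43), and Dlx3, at 12.7 ± 1.67 CPM in systemic JAK1i skin and 89.4 ± 27.5 CPM in AA skin (-2.82 ± 0.33). Shh (ENSMUSG00000002633, GRCm38 chr5:28456815-28467256), the signal that the matrix sends to keep growth going, had 1 count over the 6 treated libraries and 211 counts over the 6 AA libraries. That level is 298-fold lower, with a 95% counting interval of 52.9 to 11826, and AA libraries had 2.69, 5.42 and 11.4 CPM (lowest, median and highest). Its receptor and target Ptch1 was at 40.7 ± 3.61 CPM in systemic JAK1i skin and 73.8 ± 22.3 CPM in AA skin (-0.86 ± 0.18). 7 of 10 hedgehog genes were lower and 0 higher, against 24.8% and 22.9% of all genes. Wnt genes were divided, with 13 of 33 lower and 9 higher, against 24.8% and 22.9% of all genes. Lef1, the Wnt effector of the matrix, was at 8.75 ± 1.47 CPM in systemic JAK1i skin and 50.6 ± 20.2 CPM in AA skin (-2.54 ± 0.41) and the ligand Wnt11 at 4.97 ± 0.923 CPM in systemic JAK1i skin and 24.4 ± 5.89 CPM in AA skin (-2.29 ± 0.29), while Wnt16 (1.9 ± 0.30), Dkk2 (1.93 ± 0.33), a Wnt antagonist, and Rspo3 (1.71 ± 0.35), which strengthens Wnt signals, were higher. Of 11 FGF genes 8 were higher and 3 lower, against 22.9% and 24.8% of all genes. Fgf18, made by the resting follicle and known to hold it at rest, had 3.14, 3.87 and 4.97 CPM in systemic JAK1i skin, against 0.264, 0.5 and 1.22 CPM in AA skin (2.63 ± 0.47), and Fgf5, which ends growth, was at 0.405 ± 0.311 CPM in systemic JAK1i skin and 3.3 ± 1.42 CPM in AA skin (-3.03 ± 0.66). Grem1, a BMP antagonist of the dermis, was at 49.5 ± 11.1 CPM in systemic JAK1i skin and 10.9 ± 3.24 CPM in AA skin (2.18 ± 0.33).

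Genes of the bulge, where follicle stem cells rest, rose in part, with 8 of 16 higher and 1 lower (56.2% called, against 47.7% of all genes). Krt15 (ENSMUSG00000054146, GRCm38 chr11:100131758-100135928) had 1258, 1389 and 1609 CPM in systemic JAK1i skin, against 109, 170.1 and 384 CPM in AA skin, wholly apart (2.66 ± 0.29, edgeR adjusted p = 9.0e-07), and healthy skin had 870.0, 1666 and 1819 CPM. Nfatc1, which keeps the stem cells quiescent, was at 92.4 ± 5.24 CPM in systemic JAK1i skin and 40.1 ± 6.49 CPM in AA skin (1.2 ± 0.13), Col17a1, which anchors them, at 1449 ± 174 CPM in systemic JAK1i skin and 865 ± 174 CPM in AA skin (0.75 ± 0.18), and Cd34 at 175 ± 32.2 CPM in systemic JAK1i skin and 70.8 ± 25.6 CPM in AA skin (1.3 ± 0.26). The companion layer and outer root sheath keratins Krt6a (-2.66 ± 0.28), Krt16 (-4.43 ± 0.58) and Krt17 (-1.5 ± 0.25) were lower, as Krt6b was.

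Pigment genes, which follicle melanocytes use mainly in growth, were lower in 9 of 15 cases and higher in 1, against 24.8% and 22.9% of all genes. In the fit of the 12 libraries alone 5 of 11 were lower, where 3964 of all 15546 genes tested were lower. Oca2, a melanosome transporter, was not counted in any of the 6 treated libraries and had 0.23, 7.1 and 13.6 CPM in AA skin, at least 106-fold lower with the floor of 3 counts over the group. Tyr, tyrosinase, was at 2.18 ± 0.909 CPM in systemic JAK1i skin and 13.3 ± 7.99 CPM in AA skin (-2.63 ± 0.56) and Trpm1 at 1.89 ± 0.225 CPM in systemic JAK1i skin and 23.6 ± 13.6 CPM in AA skin (-3.62 ± 0.57). Mitf, the regulator of the lineage, was higher, at 81.5 ± 4.87 CPM in systemic JAK1i skin and 56.8 ± 9.38 CPM in AA skin (0.52 ± 0.18), a call lost without AA library A (edgeR adjusted p = 0.0513) and on centred TPM (limma adjusted p = 0.679), and Dct, of melanocyte precursors as well, was at 41 ± 4.94 CPM in systemic JAK1i skin and 56.8 ± 29.5 CPM in AA skin and did not pass. 

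All 26 cell cycle genes of the list were lower, against 24.8% of all genes (median -1.35). Mki67 had 121, 156 and 192 CPM in systemic JAK1i skin, against 305, 450.3 and 563 CPM in AA skin, with no overlap (-1.51 ± 0.18), and Top2a had 69.6, 89.9 and 111 CPM in systemic JAK1i skin, against 189, 269 and 342 CPM in AA skin (-1.55 ± 0.17). Healthy skin was at 184 ± 43 CPM of Mki67 and 107 ± 22.3 CPM of Top2a. In the epidermal differentiation complex, the cluster of cornified envelope genes, 16 of 22 were lower and 2 higher, against 24.8% and 22.9% of all genes. Sprr1b was at 0.666 ± 0.976 CPM in systemic JAK1i skin and 56.6 ± 34.3 CPM in AA skin (-6.44 ± 1.22) and Hrnr, hornerin, at 259.5 ± 68.3 CPM in systemic JAK1i skin and 698 ± 214 CPM in AA skin (-1.43 ± 0.39). The basal keratin Krt14 was lower (-1.01 ± 0.20), its partner Krt5 was at 1835 ± 263 CPM in systemic JAK1i skin and 2015 ± 425 CPM in AA skin and did not pass, and Krt24 was higher (2.78 ± 0.54). 

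**Figure D4:**
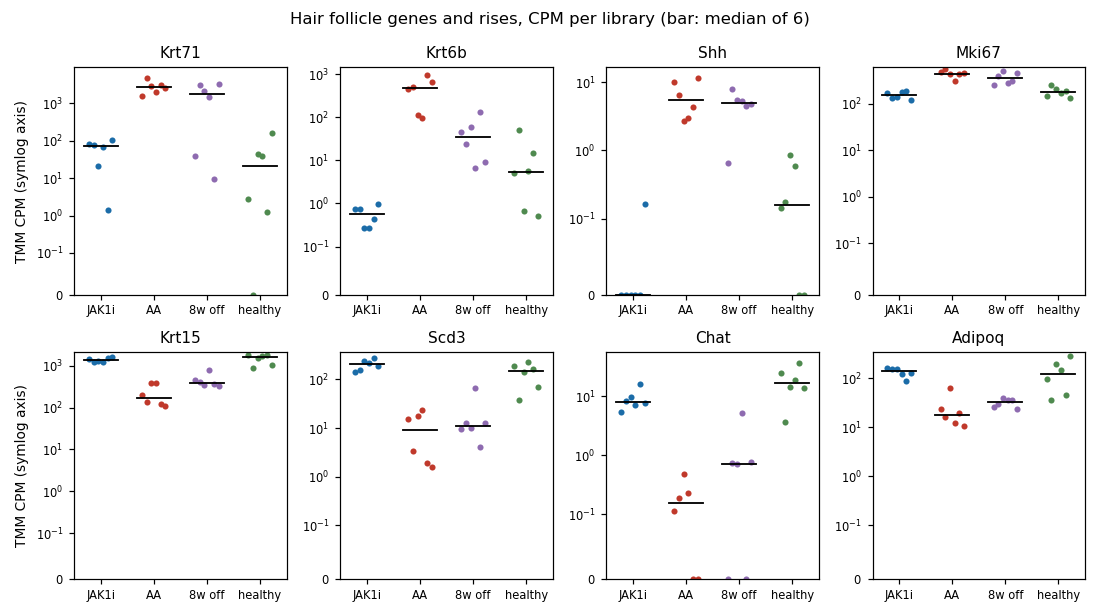
CPM of 8 genes in each library (symmetric log axis, linear below 0.1 CPM), with systemic JAK1i, AA, 8w off Tx and healthy skin from left to right, 6 points each, and a bar at the median. Krt71, Krt6b, Shh and Mki67 are low in treated skin and Krt15, Scd3, Chat and Adipoq high, with no overlap between treated and AA libraries in any of the 8.

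Most genes of the sebaceous gland and of adipocytes were higher, and most of cholesterol synthesis did not pass. Of 20 sebaceous gland genes 13 were higher and 3 lower, against 22.9% and 24.8% of all genes. Scd3, a desaturase of sebocytes, had 144, 202 and 277 CPM in systemic JAK1i skin, against 1.59, 9.25 and 23.6 CPM in AA skin (4.24 ± 0.59), and the broadly used Scd1 was at 3807 ± 762 CPM in systemic JAK1i skin and 1505 ± 838 CPM in AA skin (1.34 ± 0.35). Awat2, which makes wax esters, was at 25 ± 8.82 CPM in systemic JAK1i skin and 4.61 ± 3.48 CPM in AA skin (2.43 ± 0.42), and the desaturase Fads2 was lower, at 4.58 ± 0.486 CPM in systemic JAK1i skin and 19.5 ± 7.55 CPM in AA skin (-2.08 ± 0.38). Of 17 cholesterol genes 5 were higher and 0 lower, by small steps (Hmgcs1 0.56 ± 0.10, Msmo1 0.73 ± 0.15), and 29.4% were called, against 47.7% of all genes. Without treated library B, C or E or AA library A the count was 3 of 17. Adipocyte genes rose together, 15 of 16 higher and 0 lower, against 22.9% and 24.8% of all genes (median 1.81). Adipoq, adiponectin, had 88, 142 and 163 CPM in systemic JAK1i skin, against 10.8, 17.8 and 63.1 CPM in AA skin (2.48 ± 0.42), Plin4, a lipid droplet coat, was at 522 ± 55.7 CPM in systemic JAK1i skin and 132 ± 67 CPM in AA skin (1.98 ± 0.26), and Lep, leptin, at 59.1 ± 23.8 CPM in systemic JAK1i skin and 5.17 ± 3.97 CPM in AA skin (3.51 ± 0.52). Cebpa was at 183 ± 13.1 CPM in systemic JAK1i skin and 176 ± 28.2 CPM in AA skin and did not pass. Of 17 vessel genes 8 were higher and 3 lower, against 22.9% and 24.8% of all genes. Pecam1 was at 65.5 ± 7.75 CPM in systemic JAK1i skin and 29.1 ± 8.34 CPM in AA skin (1.16 ± 0.18), Emcn at 9.82 ± 0.577 CPM in systemic JAK1i skin and 2.3 ± 1.22 CPM in AA skin (2.03 ± 0.24) and the lymphatic receptor Flt4 at 19.6 ± 1.35 CPM in systemic JAK1i skin and 6.16 ± 2.08 CPM in AA skin (1.66 ± 0.22), all higher. Flt1, a VEGF receptor, was lower at 39.2 ± 5.72 CPM in systemic JAK1i skin and 121 ± 49.7 CPM in AA skin (-1.63 ± 0.28). Of 10 nerve and Schwann cell genes 7 were higher, against 22.9% of all genes. They were led by Cdh19, with 14.5, 17.1 and 19.4 CPM in systemic JAK1i skin, against 1.34, 2.96 and 4.75 CPM in AA skin. Of 17 fibroblast genes 5 were higher, such as Dcn, decorin (1.26 ± 0.27), and 2 lower (41.2% called, against 47.7% of all genes), and Col1a1 was at 1798 ± 333 CPM in systemic JAK1i skin and 1424 ± 664 CPM in AA skin and did not pass. The fibroblast genes higher were 2 without treated library A or AA library D or F, 3 without AA library B and 9 without AA library C. 

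Some genes that moved are known markers of body position, of the tissue under the skin, of the time of day or of handling. Hox genes, which keep a record of body position in skin, were higher in 17 of 26 cases and lower in 3, against 22.9% and 24.8% of all genes. Hoxa9 had 7.98, 9.53 and 12.4 CPM in systemic JAK1i skin, against 0, 1.33 and 2.15 CPM in AA skin, with 8w off Tx skin of the same mice at 0.193, 1.34 and 3.98 CPM and healthy skin at 0.569, 1.2 and 2.77 CPM. Treated skin was the one group that stood apart, against AA skin (2.89 ± 0.45, edgeR adjusted p = 1.4e-05) and against healthy skin (2.92 ± 0.44, edgeR adjusted p = 0.0021). Hoxc10, which marks the hind part of the body, had 2.14, 2.77 and 3.31 CPM in systemic JAK1i skin, against 0, 0.444 and 0.574 CPM in AA skin, with 8w off Tx skin at 0, 0.0931 and 0.324 CPM and healthy skin at 0, 0 and 0.171 CPM (2.91 ± 0.47 against AA, 5.75 ± 1.29 against healthy skin, edgeR adjusted p = 7.6e-06). Hoxa10 was at 4.31 ± 1.61 CPM in systemic JAK1i skin and 0.702 ± 0.507 CPM in AA skin (2.63 ± 0.51) and Hoxb9 at 3.34 ± 1.02 CPM in systemic JAK1i skin and 0.907 ± 0.472 CPM in AA skin (1.92 ± 0.40). 6 Hox genes were higher in treated skin than in healthy skin, against 1.05% of all genes called there in either direction. Hoxc13, which the hair matrix itself uses, was lower (-2.18 ± 0.34). Of 12 other position genes 9 were higher and 1 lower, against 22.9% and 24.8% of all genes. Zic1 was at 17.5 ± 2.97 CPM in systemic JAK1i skin and 3.16 ± 1.69 CPM in AA skin (2.4 ± 0.42) and Tbx15 at 78.1 ± 7.93 CPM in systemic JAK1i skin and 42.8 ± 7.15 CPM in AA skin (0.86 ± 0.20). These genes moved with the group, and their part in the results above was not tested.

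Skeletal muscle, which lies under the skin, took a larger and more even share of treated libraries. The summed level of 22 muscle genes was 67620.0 to 84610.0 CPM in systemic JAK1i skin, 19250.0 to 53880.0 CPM in AA skin, 23250.0 to 112700.0 CPM in 8w off Tx skin and 1290.0 to 75810.0 CPM in healthy skin. Ttn, titin, had 43134, 45845 and 53525 CPM in systemic JAK1i skin, against 10753, 13119 and 30392 CPM in AA skin, with no overlap, yet it did not pass in the fit that shares its spread with healthy and 8w off Tx skin (1.42 ± 0.64, edgeR adjusted p = 0.078). In that fit 2 of the 22 were higher and 1 lower, against 22.9% and 24.8% of all genes. In a fit of the 12 libraries alone 19 of 20 were higher and 0 lower, where 3866 of all 15546 genes tested were higher and 3964 lower. Myh1, the myosin of fast IIx fibres, had 4473, 5198 and 6088 CPM in systemic JAK1i skin, against 237, 404 and 1162 CPM in AA skin and 206, 1019 and 2942 CPM in 8w off Tx skin (3.24 ± 0.67, edgeR adjusted p = 8.9e-04), and Myh4, of IIb fibres, was at 3161 ± 1524 CPM in systemic JAK1i skin and 4693 ± 1987 CPM in AA skin and did not pass. With the muscle level of each library as a covariate 3424 genes were higher and 3815 lower, and in that fit 29 of 30 antiviral effectors, 9 of 13 MHC class I genes and 6 of 11 class II genes were lower. Myh4 was then lower too (-1.93, edgeR adjusted p = 2.0e-05). The covariate was the mean log2 CPM of the 22 muscle genes, with Myh4 and Ttn among them. A change of either gene in that fit is therefore relative to a mean that includes it, and is not a separate result.

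Circadian genes differed as well, in 12 of 18 cases higher and 4 lower, against 22.9% and 24.8% of all genes. Dbp, an output of the clock that swings widely over the day, had 39.1, 48.2 and 55.2 CPM in systemic JAK1i skin, against 4.4, 8.83 and 16.1 CPM in AA skin, 23.5, 46.3 and 76.7 CPM in 8w off Tx skin and 15.1, 37.3 and 48 CPM in healthy skin. The AA libraries were the low group (2.34 ± 0.32, edgeR adjusted p = 7.5e-06). Tef (1.9 ± 0.20), Per3 (1.88 ± 0.21) and Nr1d2 (1.52 ± 0.18) were higher with it, and Arntl (-0.37 ± 0.12) and Nfil3 (-1.01 ± 0.28), which peak at the opposite time, were lower, the call of Arntl being lost on centred TPM (limma adjusted p = 0.0737). The hour of sampling is not given in the sources used here. Fos, a gene of acute stress, was uneven among treated mice. It had 264 CPM in treated library D, 129.9 in C, 58 in E and 15.8 to 17.2 in the other 3, against 25.8 to 60.9 CPM in AA skin, and did not pass (edgeR adjusted p = 0.073). The difference passed without treated library A (edgeR adjusted p = 0.0283), B (edgeR adjusted p = 0.0277) or F (edgeR adjusted p = 0.028). Of 20 immediate early genes 5 were higher and 5 lower, 50.0% called, which is near the 47.7% of all genes. Without treated library D 3 were higher, and without AA library D 2 were lower. Tsc22d3, induced by glucocorticoids, had 95.1, 301 and 367 CPM in systemic JAK1i skin, against 74.4, 95 and 122 CPM in AA skin (1.46 ± 0.26). Treated library A was the lowest of its group, at 95.1 CPM, with the others at 218 to 367 CPM. Of 16 hypoxia genes 8 were lower and 0 higher, against 24.8% and 22.9% of all genes, for instance the glucose transporter Slc2a1 (-1.43 ± 0.27). Mitochondrial ribosomal and transfer RNA took 2.37% to 3.07% of counts in systemic JAK1i skin and 1.82% to 2.51% in AA skin. The part of these in the results was not tested.

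**Figure D5:**
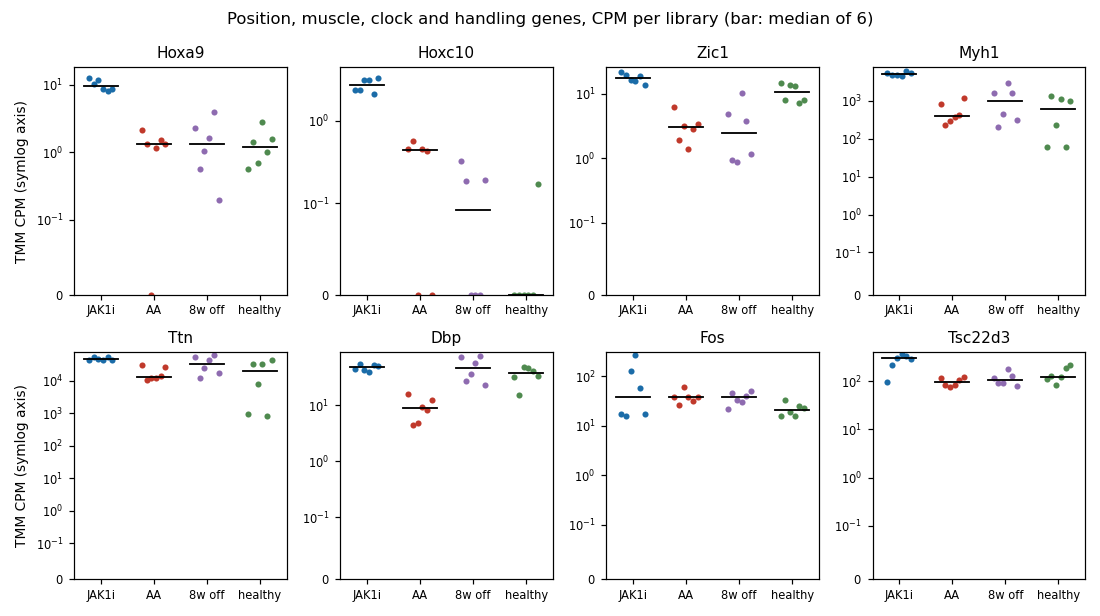
CPM of 8 genes in each library (symmetric log axis, linear below 0.1 CPM), with systemic JAK1i, AA, 8w off Tx and healthy skin from left to right, 6 points each, and a bar at the median. Hoxa9 and Hoxc10 are high in treated skin alone, Dbp has its lowest median in AA skin, and Fos is spread over more than a factor of 10 within treated skin.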

How the data were processed

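RNA of 24 skin libraries was sequenced, and the 12 of systemic JAK1i and AA skin are compared here. The authors' deposited count per gene was made with HISAT2 2.0.1, genome mm10 (GRCm38), and featureCounts 1.4.4, per the labels. The study's methods describe total RNA depleted of ribosomal RNA and sequenced as 2 × 76 bases. The labels hold the words PolyA RNA, which conflict with the study's methods. Which annotation release was used, whether strand was read and how multi-mapped reads were counted is not given in the sources used here. Genes that overlap, run antisense or have close copies are therefore uncertain. The deposited TPM values are over the same 39017 IDs, and no source names their tool. Each table holds 6 further columns that match no sample, which were left out. Symbols and positions come from GENCODE M21 (37693 IDs matched, 1324 did not).

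In R 4.3.3, genes were kept with edgeR 4.0.16's filterByExpr at a minimum count of 10, scaled by TMM and fitted over the 4 groups of 24 libraries by glmQLFit and glmQLFTest, with Benjamini-Hochberg adjustment over all genes kept. A gene is called at an adjusted p below 0.05. CPM are given as mean ± SD (n = 6) or as lowest, median and highest, and log2 fold changes ± SE. For a group without any count a floor of 3 counts was used, over all its libraries, and ratios of 1 to 3 counts carry a 95% counting interval, which covers counting error only. The 66 gene lists, and the part of the series described, were chosen with earlier results of these data known, and list counts are read against the shares of all genes called. Promoters are RefSeq windows (GRCm38.p6). The steps were tested on simulated data.

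Alternatives were RLE and upper-quartile scaling, no filter on low counts, at least 20 counts in 6 libraries, the 12 libraries alone, the replicate letter as a block, muscle level as a covariate, DESeq2 1.42.0, limma 3.58.1 with voom or on log2 TPM, and leaving out each library in turn. Centred TPM and leaving out systemic JAK1i A with AA C were chosen after seeing the data. Genes were named by rule: the 10 largest rises and falls past the study thresholds with separate libraries and log2 CPM averaging 1 or more, the 20 smallest p, per list the 2 smallest p and 2 highest levels, the JAK, STAT, feedback, gamma-chain, interferon receptor, CD8, CD4 and Hox genes, and those the study names for mouse skin. Chosen outside it after their values were seen were Adipoq, Arntl, Awat2, Cd34, Cebpa, Dbp, Dkk2, Fads2, Fgf5, Fos, Foxp3, Gm12185, Isg20, Krt16, Krt17, Lef1, Lep, Nfil3, Sprr1b, Tyr and Wnt16. Some genes that the rule takes in are not reported here. The human cells, qPCR and flow cytometry of the study were not analysed here.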

Additional observations from a re-analysis of the deposited data

Results flagged for a closer look

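Of 371 pairs of a named gene and a group of 6 libraries, 37 (9.97%) had 1 library whose gap to the nearest of the others, as a share of the whole range, was above Dixon's 95% critical value. Chance gives about 1 in 20 for independent, normally distributed values. The rule was run on CPM without logs, some of them a few reads, for genes that can move together. The share of pairs past it is therefore no measure of an excess over chance. In the following the library's CPM stands before the range of the other 5 of its group.

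Systemic JAK1i A held 17 of them, each time as the highest of its group, in Batf2 (5.24 against 1.1 to 2.57 CPM), Ccl8 (54.5 against 2.57 to 7.91 CPM), Cd274 (31.3 against 17.7 to 22 CPM), Cd4 (11.1 against 2 to 3.6 CPM), Cxcl10 (9.88 against 3.42 to 4.86 CPM), Cxcl11 (5.54 against 2.71 to 3.68 CPM), Cxcl9 (39.8 against 2.85 to 13.5 CPM), Gzma (0.599 against 0 to 0.18 CPM), H2-K1 (741 against 480.1 to 573 CPM), Ifng (1.65 against 0 to 0.552 CPM), Igkc (96.3 against 11.1 to 39.2 CPM), Iigp1 (164 against 20.7 to 60.9 CPM), Irf1 (104 against 37.5 to 52.2 CPM), Irf9 (52.1 against 33.4 to 40.2 CPM), Lep (105 against 34.8 to 57.4 CPM), Lyz2 (327 against 62.2 to 159 CPM) and Stat4 (1.95 against 0.428 to 0.899 CPM). Most of these are targets of interferon gamma or genes of T cells, macrophages and plasma cells, and Lep is an adipocyte gene. Irf9 is among them and the antiviral genes Isg15, Oas3 and Mx1 are not, while the summed level of the 30 antiviral effectors was also highest in A, above the 248.5 to 310.5 CPM of the other treated libraries.

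Of the other treated libraries, B was highest in Klrk1 (6.99 against 3.99 to 4.94 CPM) and Krt32 (4.97 against 3.68 to 4.14 CPM) and lowest in Mitf (72.1 against 81.6 to 86.2 CPM). D was highest in Krtap19-1 (0.27 against 0 to 0 CPM) and Socs3 (27.7 against 12.9 to 17.6 CPM), E in Hoxb9 (5.28 against 2.32 to 3.41 CPM) and F in Krt5 (2349 against 1648 to 1873 CPM), Krtap8-1 (18.5 against 0.143 to 6.89 CPM), Shh (0.165 against 0 to 0 CPM) and Sprr1b (2.65 against 0.143 to 0.45 CPM). Where the others were at 0, the value stands for 1 to 3 reads.

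AA C was highest in Adipoq (63.1 against 10.8 to 23.8 CPM), Cpa3 (20.6 against 3.17 to 8.69 CPM), Fos (60.9 against 25.8 to 38.6 CPM), Lep (12.7 against 2.29 to 5.43 CPM) and Plin4 (264 against 84.7 to 133 CPM) and lowest in Nlrc5 (371 against 585 to 688 CPM). AA A was highest in Akr1c19 (0.792 against 0 to 0.264 CPM) and Slc26a7 (3.4 against 0 to 0.734 CPM), AA B in Krt32 (128 against 37.4 to 70.8 CPM), and AA F was lowest in Nfatc1 (27.8 against 39.4 to 46 CPM).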

How the results depend on the processing

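Under RLE or upper-quartile scaling, no filter on low counts, a minimum of 20 counts, the 12 libraries alone, the muscle covariate, DESeq2, voom, and without systemic JAK1i A and AA C together, 3424 to 4217 genes were higher and 3678 to 4406 lower at FDR 0.05, with 146 to 225 higher and 378 to 540 lower at the study thresholds. Leaving out 1 library at a time gave 3282 to 3773 higher and 3718 to 4007 lower, and at the study thresholds 134 to 227 higher and 397 to 464 lower. The replicate letters do not pair the mice: deviations of libraries with the same letter correlated at -0.206 to 0.0948. With the replicate block 3474 genes were higher and 3486 lower, and 133 and 318 at the study thresholds.

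Values changed most on the TPM table. Without centring, log2(TPM + 0.1) on the same genes gave 8564 higher and 603 lower (328 and 146 at the study thresholds), log2(TPM + 1) gave 8962 and 680 (111 and 151), and log2(TPM + 0.1) on every gene above 0 gave 9723 and 731 (321 and 107). After centring, 3403 were higher and 3204 lower, and 103 and 316 passed the study thresholds. miRNA features took 12.4% to 20.3% of the TPM in systemic JAK1i libraries and 22.3% to 64.6% in AA libraries. Log2 fold changes turned positive on log2(TPM + 0.1) for Arntl (0.34), Cish (0.031), Dlgap5 (0.27), Krt10 (0.54), Krt5 (0.52), Stat3 (0.035) and Stat6 (0.32), on log2(TPM + 1) for Arntl (0.28), Cish (0.021), Dlgap5 (0.23), Krt10 (0.54), Krt5 (0.52), Stat3 (0.032) and Stat6 (0.31), and on log2(TPM + 0.1) with every gene for Arntl (0.34), Cish (0.031), Dlgap5 (0.27), Krt5 (0.52), Stat3 (0.035) and Stat6 (0.32). The cause was not tested. Log2 fold changes over 1.5 times smaller on centred TPM than on counts were those of Awat2 (1.15), Cd8a (-1.30), Chat (2.76), Dlgap5 (-0.36), Fgf5 (-1.65), Gm4841 (-3.40), H2-T24 (-1.08), Hoxa10 (1.71), Hoxb9 (1.26), Ifi44 (-3.36), Il15 (0.23), Il21r (-0.77), Il2ra (-1.02), Isg15 (-3.42), Klrk1 (-1.18), Mitf (0.21), Mx1 (-1.73), Oas3 (-2.96), Oca2 (-1.08), Pecam1 (0.76), Prf1 (-0.94), Shh (-2.32), Socs6 (0.10), Tnfrsf9 (-0.70), Trpm1 (-1.12), Tyr (-1.13) and Wfdc3 (2.84). In this setting Arntl, Cish, Il15, Mitf and Socs6 lost their calls. With the replicate block Cish and Stat6 lost theirs, Ttn and Igkc passed, 6 of 10 class II genes, 5 of 13 macrophage markers and 5 of 11 pigment genes were lower, and 19 of 20 muscle genes higher. Stat6 was also lost under upper-quartile scaling and without the filter, Igkc passed with voom, and Ttn passed with DESeq2 and the 12 libraries alone. Ttn also passed with the muscle covariate, which was built from muscle genes that include it.

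Of the 186 genes named, 174 kept their call and direction in every setting other than uncentred TPM in which they were tested (23 settings, and 20 to 22 for 10 of the genes). Depth limits what can be said of genes with a few reads per library, such as Ifng, Gzma and Gzmb in treated skin. Low RNA integrity is reported for these samples, and its part was not tested.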
